A study of Papio hamadryas with 11 samples.

Results

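The B cell development genes examined here were CD79A, CD79B, CD22, MS4A1, VPREB1, VPREB3, IGLL1, PAX5 and BLNK, measured in the liver of near-term baboon fetuses. Every probe that the array's annotation assigns to 1 of these 9 symbols was taken, which gave 17 of the 48803 probes on the array. A probe was reported where its detection p-value, the scanner software's test of a probe against background, was under 0.05 on at least 4 of the 11 arrays. That left 6 member probes, for CD79A, CD79B, VPREB1, IGLL1 and CD22, among 12065 probes in the whole table. The members were chosen by name, with earlier results of these data known.

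Total RNA came from the livers of Papio hamadryas fetuses at 165 days, 0.9 of gestation, 1 array per fetus. The control group (CON) held 6 fetuses, of which CON1, CON2 and CON3 were female and CON4, CON5 and CON6 male. The maternal obese group (MO) held 5, of which MO1, MO2 and MO3 were female and MO4 and MO5 male. The labels call the groups control and maternal obese and give no diet, maternal weight or other agent. Slide was read from the prefix of the array name in each sample title. By that prefix CON1, CON2, CON3 and CON4 lay on slide 1, and the 2 remaining controls shared slide 2 with the whole maternal obese group. Slide and condition are thus partly confounded, and a within-slide comparison has 2 controls against 5 maternal obese arrays.

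The liver is a main site of blood formation in the fetus, and B cells are made there before and alongside the bone marrow. A committed B cell precursor expresses the transcription factor PAX5 and joins its first immunoglobulin gene segments. It then shows a pre-B cell receptor, in which an immunoglobulin heavy chain pairs with the surrogate light chain made of VPREB1 and IGLL1 and signals through the CD79A and CD79B pair and the adaptor BLNK. The surrogate light chain is switched off as a conventional light chain takes its place, while CD79A and CD79B stay on through B cell life. MS4A1, which encodes CD20, and CD22, an inhibitory lectin that binds sialic acid, are surface proteins best known from later B cells. In bulk tissue, fewer cells of a type and less RNA per cell cannot be told apart.

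The values behind all results are normalized log2 intensities, background-corrected and quantile-normalized across the arrays. Between 10131 (MO4) and 13065 (CON4) probes were detected per array, 20.8% to 26.8% of all. The liver label was borne out by its markers: all 10 hepatocyte markers were measured, though TF was detected on 4 arrays only. Of 10 erythroid markers 8 were on the array and 5 were measured, with HBA2, HBB and HBG2 on all 11 arrays. SLC4A1 was detected on 2 arrays, EPB42 on 1 and KLF1 on 0. Markers of T and NK cells were sparse, with 3 of 12 measured and the T cell receptor genes CD3D and CD3E detected on 3 arrays each. These are human probes, and where the baboon transcript differs from them the signal can be weaker, so an undetected probe does not show an absent transcript. Levels of different probes are for the same reason not set against each other.

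Detection varied widely among the member probes. Of the 17 member probes, 8 were not detected on any array, 3 more were detected on 1 or 3 arrays, and 6 passed. Each array detected between 4 and 8 member probes: CON1 7, CON2 5, CON3 6, CON4 8, CON5 8, CON6 5, MO1 5, MO2 6, MO3 5, MO4 5 and MO5 4. CON1, CON4 and CON5 detected the most, and MO5 the fewest. Just inside the threshold lay VPREB1, detected on 4 arrays, and just outside it lay VPREB3 and 1 CD79B probe (ILMN_1710017), detected on 3 arrays each.

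**Figure D1:**
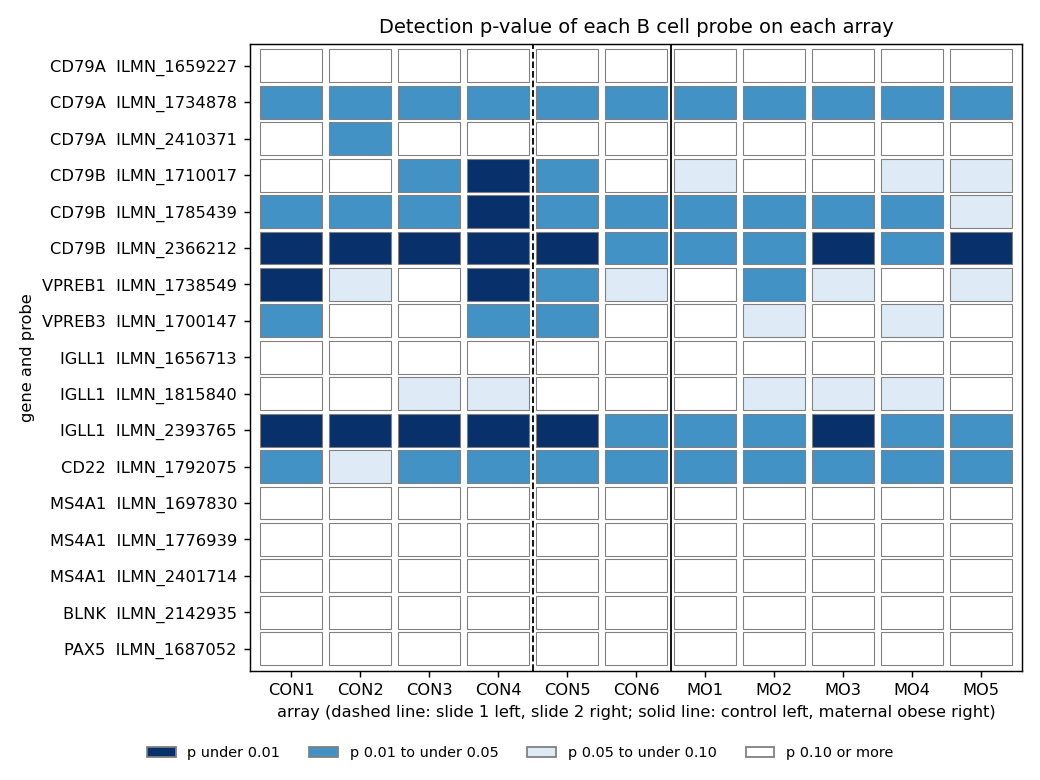
Detection of each member probe (rows) on each of the 11 arrays (columns), with darker cells for smaller detection p-values, a dashed line between the slides and a solid line between the conditions. CD79A, CD79B and IGLL1 each have a probe detected on all 11 arrays, VPREB1 and VPREB3 are detected mainly on CON1, CON4 and CON5, and no probe of MS4A1, BLNK or PAX5 is detected on any array.

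CD79B, which carries the intracellular signal of the B cell receptor together with CD79A, had the smallest p-value of the members. With its brighter probe (ILMN_2366212), which was detected on all 11 arrays, the normalized log2 level was 7.27, 6.60, 6.70, 7.58, 7.12 and 6.48 in CON1 to CON6. In MO1 to MO5 it was 6.03, 6.12, 6.47, 5.95 and 6.52. CON1 to CON5 lay above every maternal obese array, and CON6 lay inside the maternal obese range, so the groups overlapped by 1 control. Its control mean was 6.96 ± 0.43 (SD, n = 6) against 6.22 ± 0.26 (SD, n = 5) under maternal obesity. The difference, maternal obese minus control, was -0.74 (SE 0.20, 95% interval -1.18 to -0.30), a level 1.67-fold lower. In limma's moderated test its unadjusted p was 0.00304, and after Benjamini-Hochberg adjustment over all 12065 probes it was 0.293, which did not pass the threshold of 0.05. On the unnormalized scale the intensities ran from 117 to 277 in controls and from 116 to 148 in the maternal obese group.

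The dimmer CD79B probe (ILMN_1785439) was detected on every array but MO5, where its detection p was 0.0896. Its log2 level was 6.06, 5.71, 5.77, 6.06, 5.99 and 5.78 in CON1 to CON6, and 5.87, 5.49, 5.47, 5.88 and 5.18 in MO1 to MO5. CON1, CON4 and CON5 lay above all maternal obese arrays, while CON2, CON3 and CON6 lay among them. The difference was -0.32 (SE 0.15, 95% interval -0.63 to -0.0028), with a limma adjusted p of 0.379. The other CD79B probe (ILMN_1710017), detected on CON3, CON4 and CON5 alone, reached 5.84 in CON4 against 4.94 to 5.18 in the maternal obese group. No fold is given for it, since its control mean lay below the detection bound of the maternal obese arrays. That bound is the mean, over those arrays, of each array's lowest level that counted as detected (5.42).

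CD79A, the partner that CD79B binds, showed no such spread. Its detected probe (ILMN_1734878) had log2 levels of 5.63, 5.80, 5.53, 5.58, 5.85 and 5.74 in CON1 to CON6, and 5.79, 5.63, 5.66, 5.77 and 5.56 in MO1 to MO5. The groups overlapped over nearly their whole range, and all 11 values lay within 0.31. The difference was -0.01 (SE 0.10, 95% interval -0.23 to 0.21), with a limma adjusted p of 0.973. This probe was dim on every array, with intensities of 88.8 to 130 (130 on CON5) and detection p-values of 0.0132 to 0.0395, and near background a difference in log2 level understates a difference in RNA. Of the other CD79A probes, ILMN_2410371 was detected on CON2 alone and ILMN_1659227 on no array.

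IGLL1, the lambda-like part of the surrogate light chain, was detected on all 11 arrays with 1 of its 3 probes (ILMN_2393765). Its log2 level was 7.76, 6.39, 6.66, 8.03, 7.48 and 6.32 in CON1 to CON6. In MO1 to MO5 it was 6.33, 6.20, 6.72, 6.28 and 6.25. CON1, CON4 and CON5 stood above all other arrays, with a gap of 0.76 to the next, which was MO3, and the other 3 controls lay within the maternal obese range. The means were 7.11 ± 0.74 (SD, n = 6) and 6.35 ± 0.21 (SD, n = 5), and the difference was -0.75 (SE 0.30, 95% interval -1.40 to -0.10), a level 1.68-fold lower. Its limma p was 0.0263 unadjusted and 0.364 adjusted. IGLL1 shares sequence with the constant segments of the immunoglobulin lambda locus, so the source of this probe's signal is uncertain, and the other IGLL1 probes, ILMN_1656713 and ILMN_1815840, were not detected.

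VPREB1, the variable-like part of the surrogate light chain, was near the detection limit. Its log2 level was 6.73, 5.15, 4.99, 6.19, 6.49 and 5.30 in CON1 to CON6, and 4.92, 5.61, 5.17, 5.09 and 5.37 in MO1 to MO5. It was detected on CON1, CON4, CON5 and MO2, and the first 3 of these were its highest arrays, 0.58 or more above MO2. The means were 5.81 ± 0.75 (SD, n = 6) and 5.23 ± 0.27 (SD, n = 5). The difference was -0.58 (SE 0.31, 95% interval -1.24 to 0.09), with a limma p of 0.0829 unadjusted and 0.414 adjusted. This probe passed the filter through the arrays on which it was high, so its spread between arrays was to some extent fixed by the filter.

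VPREB3, a B lineage protein known to bind immunoglobulin chains inside the cell, was detected on CON1, CON4 and CON5 alone and was therefore not tested. Its log2 level was 5.66, 5.77 and 5.55 on those 3 arrays, and 4.91 to 5.25 on the other 8. The 3 arrays are the same ones that were highest for VPREB1. No fold is given, as the control mean lay below the detection bound of the maternal obese arrays.

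CD22 had its higher mean in the maternal obese group. Its probe (ILMN_1792075) was detected on every array but CON2, and its log2 level was 5.43, 5.22, 5.34, 5.28, 5.69 and 5.88 in CON1 to CON6, and 5.94, 5.68, 6.02, 5.96 and 5.82 in MO1 to MO5. The maternal obese mean of 5.88 ± 0.14 (SD, n = 5) was above the control mean of 5.48 ± 0.26 (SD, n = 6) by 0.40 (SE 0.14, 95% interval 0.11 to 0.70), with a limma p of 0.0111 unadjusted and 0.332 adjusted. The arrays split by slide and not by condition: the 4 slide 1 arrays lay between 5.22 and 5.43, and the 7 slide 2 arrays, controls among them, between 5.68 and 6.02. Every slide 2 array lay above every slide 1 array for 7.61% of all probes tested, and below for 6.14%, so this split is common on these arrays. With slide in the model the difference between conditions was 0.10 (limma adjusted p = 0.897).

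**Figure D2:**
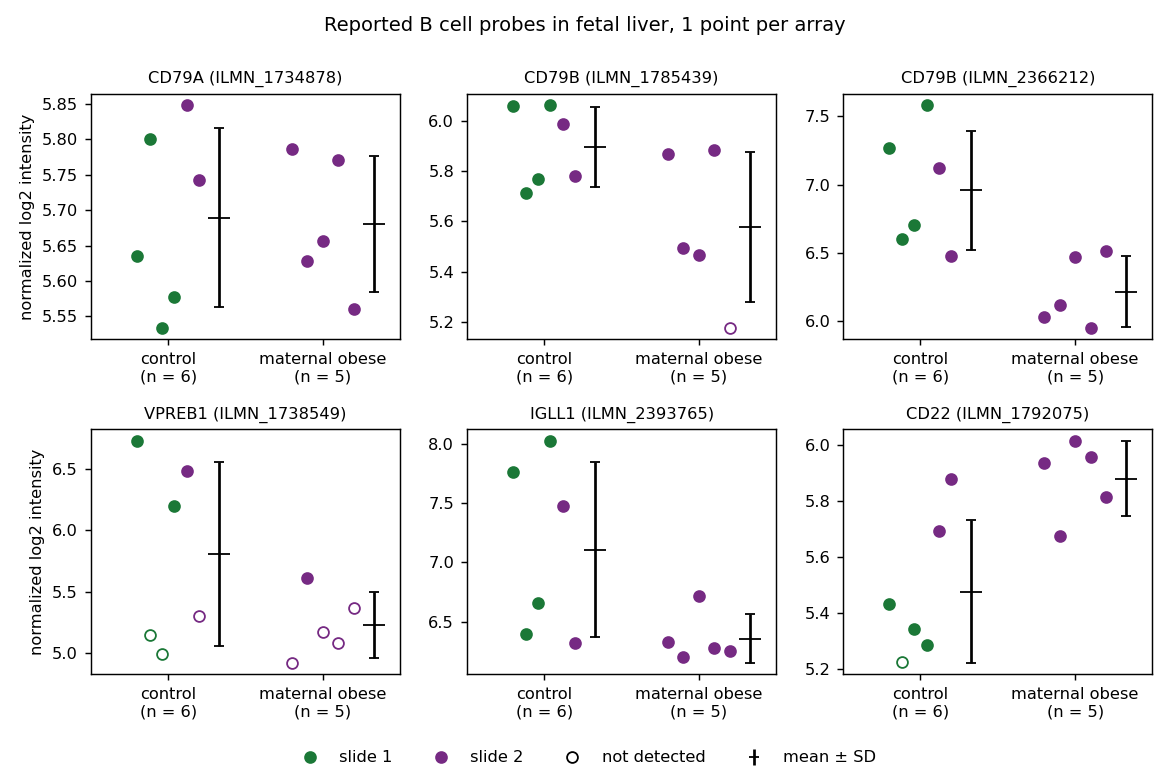
Normalized log2 intensity of the 6 reported member probes in each array, by condition, with slide shown by colour, open points for arrays where the probe was not detected, and bars for the mean and SD of each group (6 controls, 5 maternal obese); each panel has its own axis. CD79B (ILMN_2366212), IGLL1 and VPREB1 have controls far above the maternal obese arrays beside controls within their range, CD79A overlaps fully, and CD22 separates slide 1 from slide 2.

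MS4A1, BLNK and PAX5 were below detection throughout. The smallest detection p over the 11 arrays was 0.154 for the 3 MS4A1 probes, 0.235 for BLNK, the adaptor that links the receptor to downstream enzymes, and 0.357 for PAX5, the commitment factor of the lineage. No level or comparison is given for these 3 genes.

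In the comparison of maternal obesity with control, no probe of the whole table passed an adjusted p of 0.05 in limma (0 of 12065, 0%), and none of the 6 member probes did. The smallest adjusted p of any probe was 0.246. At an unadjusted p under 0.05 there were 1576 probes, 13.1% of those tested, of which 997 (8.26%) were higher and 579 (4.8%) lower in the maternal obese group. That split depends on the scaling: with arrays scaled to the median of all probes, most of which are not detected, it was 227 higher and 1291 lower, and the median over all probes moved from 0.04 to -0.14. Of the member probes, 4 of 6 were under that p, 3 lower (both CD79B probes and IGLL1) and 1 higher (CD22). In the model with slide 0 of 6 were under it, beside 7.65% of all probes, and with slide and sex 0 of 6, beside 4.78%. The median difference was -0.45 over the 6 member probes, and -0.55 under that scaling. The 6 probes stand for 5 genes, and both CD79B probes report on 1 gene. No reported member probe had all maternal obese arrays on 1 side of all controls, which occurred for 1.14% of probes upward and 0.257% downward.

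The differences were smaller for CD79B, IGLL1 and CD22 once slide was taken into account, where limma called 1 of 12065 probes (0.00829%) and no member probe. With slide as a covariate they were -0.58 for CD79B (ILMN_2366212, 95% interval -1.19 to 0.03, limma adjusted p = 0.688), -0.54 for IGLL1 (-1.46 to 0.37, adjusted p = 0.827) and -0.66 for VPREB1 (-1.62 to 0.30, adjusted p = 0.788). With these 7 slide 2 arrays alone the differences were the same, with adjusted p-values of 0.570 for CD79B, 0.648 for IGLL1 and 0.606 for VPREB1. All these within-slide values rest on CON5 and CON6, of which CON5 was high and CON6 low: CD79B was 7.12 in CON5 and 6.48 in CON6, and IGLL1 was 7.48 and 6.32. With slide and sex both in the model, CD79B was at -0.40, IGLL1 at -0.35 and VPREB1 at -0.53, each with a limma adjusted p of 0.999.

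**Figure D3:**
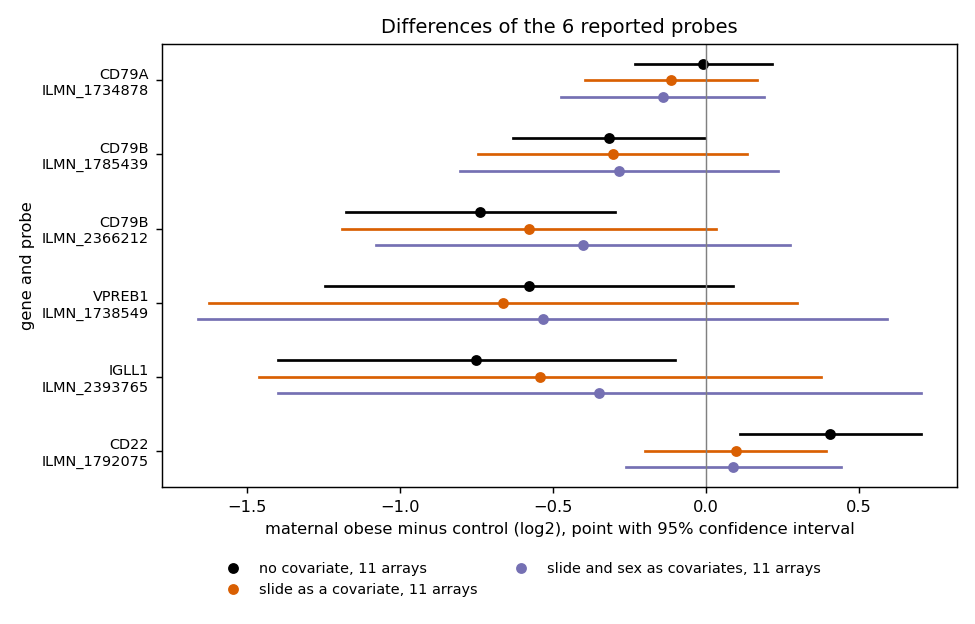
Difference in normalized log2 level, maternal obese minus control, for the 6 reported member probes under the main model and with slide or slide and sex accounted for. Points are estimates and bars 95% intervals. The estimates for CD79B (ILMN_2366212), IGLL1 and VPREB1 stay below 0 in each model. Their intervals include 0 once slide is in the model, and that of VPREB1 does so in the main model too. CD22 moves from 0.40 to 0.10 with slide as a covariate, and CD79A lies near 0.

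The 2 reported CD79B probes, IGLL1, VPREB1 and VPREB3 shared an order of arrays, which was noticed after the values had been seen. CON1, CON4 and CON5 were the 3 highest arrays for 5 of the 17 member probes (29.4%) and 4 of the 6 reported ones: both of the reported CD79B probes, VPREB1 and IGLL1, with VPREB3 as the fifth. Over the 12065 probes that passed the filter those 3 arrays were the 3 highest for 63 (0.522%), while the 17 include member probes that did not pass. The 3 arrays were picked from these same values, and CD79B counts with 2 probes. VPREB1 and VPREB3 were detected mainly on these arrays. The shares therefore describe the order and do not test it. CON1 and CON4 lay on slide 1 and CON5 on slide 2, and CON1 was female and CON4 and CON5 male. The gap between the lowest of the 3 and the next array was 0.76 for IGLL1, 0.58 for VPREB1, 0.42 for CD79B and 0.30 for VPREB3. CON2, CON3 and CON6 lay in or near the maternal obese range for these genes. For IGLL1 and VPREB1 the difference between conditions thus reflected 3 of the 6 controls more than the group as a whole. For CD79B (ILMN_2366212) CON2 and CON3 also lay above every maternal obese array, by less than CON1, CON4 and CON5. CD79A, also a signalling chain of the receptor, and CD22 did not follow this order. Nor did the CD79B probe that was not reported (ILMN_1710017). It was highest on CON4, CON5 and CON3 and lowest on CON1 (4.91), where it was not detected.

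Markers of the neutrophil and erythroid lineages moved in part with these arrays. Of 10 neutrophil markers 6 were measured (MPO, ELANE, PRTN3, LTF, CAMP and S100A9), while AZU1, S100A8, DEFA4 and CEACAM8 were not detected on any array. The summed level of those 6 on the normalized linear scale was 12399 in CON1, 6940 in CON4 and 11557 in CON5, the highest of the 11 arrays on this measure, and 1966, 1322 and 1901 in CON2, CON3 and CON6. In MO1 to MO5 it was 1745, 6521, 4469, 2443 and 5881. That sum is carried by the brightest markers. As a mean of log2 levels over the same 6 markers, CON1 (8.72) and CON5 (8.51) were highest, followed by MO5 (8.22), MO2 (8.20) and CON4 (8.16). On MO2 and MO5, IGLL1 was at 6.20 and 6.25, among its lower values, whereas VPREB1 was at 5.61 and 5.37, its highest values in the maternal obese group. VPREB3 was also highest in that group on MO2, at 5.25. The part of neutrophil precursors in the B lineage values was not tested. The 5 measured erythroid markers summed to 79794 in CON1, 66081 in CON4 and 72120 in CON5, the highest of the controls. In CON2, CON3 and CON6 that sum was 44241, 31537 and 56739. In MO1 to MO5 it was 57692, 73474, 72046, 63618 and 56778, so MO2 and MO3 lay above CON4. The 11 measured macrophage markers summed to 11054 to 20282 in controls and 10198 to 14593 in the maternal obese group. All 11 macrophage markers had a difference below 0, and 10 of 11 with slide as a covariate, none past the adjusted threshold. Over all probes 56% had a difference above 0, and 50% with slide as a covariate. Of the 6 neutrophil markers 5 lay below 0, and 6 with slide. Of the 5 erythroid markers 5 lay above 0, and 2 with slide. The 3 measured T and NK cell markers summed to 126 to 178 and 143 to 163, and their part, like that of the other lineages, was not tested.

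**Figure D4:**
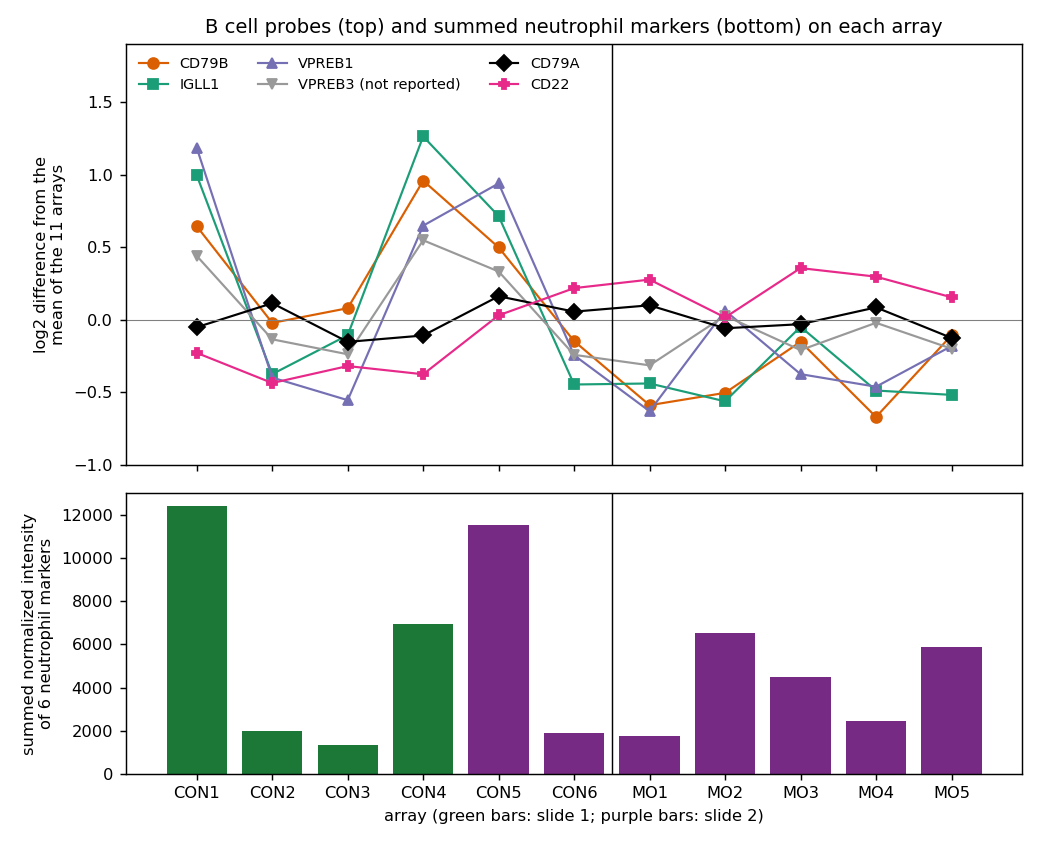
Level of CD79B, IGLL1, VPREB1, VPREB3, CD79A and CD22 on each array relative to that gene's mean over the 11 arrays (normalized log2), in array order from CON1 to MO5 (top; lines only join the points of a gene), and the summed normalized intensity of the 6 measured neutrophil markers on the same arrays (bottom, bars coloured by slide). CD79B (ILMN_2366212), IGLL1, VPREB1 and VPREB3 peak on CON1, CON4 and CON5, whereas CD79A stays flat and CD22 steps up from slide 1 to slide 2.

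Likeness between members was also measured over all 11 arrays with the slide means removed, as the root mean square difference of z-scores, where 0 is an identical profile. It was 0.45 for CD79B and IGLL1, 0.54 for VPREB1 and IGLL1 and 0.60 for CD79B and VPREB1, against 1.45 for CD79A and CD79B and 1.55 for CD79B and CD22. VPREB1 was detected on CON1, CON4, CON5 and MO2 alone, and CD79B and IGLL1 were highest on CON1, CON4 and CON5. The nearness of VPREB1 to them was thus to some extent fixed by the filter. Among 9803 probes with a gene symbol, the genes closest to CD79B were YBX1 (0.29), USF2 (0.35) and CD37 (0.41), and those closest to IGLL1 were BPGM (0.33), CD37 (0.40) and CD79B (0.45). CD37, a tetraspanin of B cells and other leukocytes, was near both with a probe (ILMN_2375825) that is not its probe in the lists below. Only on CON1, CON4, CON5 and MO3 did that probe exceed the array's lowest level that counted as detected. It thus passed the filter through arrays on which CD79B or IGLL1 was also high, and its nearness was to some extent fixed by the filter. Closest to VPREB1 were H3-3A (0.29), DEFA1B (0.32), a neutrophil defensin, and FCN1 (0.33), a ficolin of monocytes and neutrophils, though VPREB1 itself was not detected on 7 of the 11 arrays. For CD79A they were MAZ (0.34), HHIPL1 (0.42) and SERAC1 (0.48), and for CD22 ENTPD5 (0.32), CPN1 (0.38) and KIF17 (0.50).

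Within slide 2, the 10 pairs among CD79A, CD79B, VPREB1, IGLL1 and CD22 were correlated across 7 arrays with exact two-sided permutation tests. None of the 10 passed 0.05 after Benjamini-Hochberg adjustment. CD79B and IGLL1 had a Pearson r of 0.84 (exact permutation p = 0.0841, adjusted 0.280) and a Spearman rho of 0.32 (p = 0.498). Without CON5 and MO4, the arrays farthest from the CD79B median, r was 0.36, so the relation rests on those arrays. VPREB1 was detected on CON5 and MO2 alone among these arrays, so no correlation with it is described. CD79A and CD79B, which form a pair in the receptor, had an r of 0.20 (exact permutation p = 0.704).

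Slide was compared with condition as a covariate, a contrast that rests on the 6 controls and in which slide 1 held 3 females and 1 male and slide 2 held males. It called 1185 of 12065 probes (9.82%), 370 higher and 815 lower on slide 2, and 0 of the 6 member probes. CD22 came nearest, at 0.46 higher on slide 2 (SE 0.14, 95% interval 0.16 to 0.77, limma adjusted p = 0.0582). The other member probes had adjusted p-values of 0.484 to 0.971, with CD79B (ILMN_2366212) at -0.24 and IGLL1 at -0.31.

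No member probe differed past the threshold by sex. Between female and male fetuses, with condition as a covariate, limma called 4 of 12065 probes (0.0332%) and 0 of 6 member probes, whose differences, female minus male, ran from -0.20 for VPREB1 to -0.02 for CD79B (ILMN_1785439) with adjusted p-values of 0.673 to 0.972. The interaction of sex with maternal obesity called 0 of 12065 probes (0%), with 909 (7.53%) at an unadjusted p under 0.05, and the members had adjusted p-values of 0.859 to 0.961. The difference for IGLL1 was -0.52 (SE 0.42) in females and -1.01 (SE 0.47) in males, and their own difference was 0.49 with a 95% interval of -0.90 to 1.88. For CD79B (ILMN_2366212) it was -0.65 in females and -0.82 in males, and for CD22 0.54 and 0.27, and none of these passed the adjusted threshold in limma.

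Beyond the members, 78 genes in 5 lists cover the rest of the B lineage, of which 67 were on the array by its annotation and 31 were measured. In the comparison of maternal obesity with control 0 of the 31 passed in either direction, 15 lay above 0 and 16 below, and 8 had an unadjusted limma p under 0.05, 2 higher and 6 lower, beside the 13.1% of all probes. In the model with slide 2 of the 31 were under that p, DAPP1 higher and CXCL12 lower, beside 7.65% of all probes.

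The list of recombination and early growth genes had the lowest median, -0.46 over its 6 measured genes of 14, 4 of them below 0, and its median was -0.15 in the model with slide. CXCL12, the stromal chemokine that retains precursor cells, had a log2 level of 10.10, 9.36, 10.05, 10.05, 10.10 and 10.33 in CON1 to CON6, and 9.49, 9.45, 9.48, 9.36 and 9.57 in MO1 to MO5. All controls but CON2 lay above the maternal obese arrays. Its difference was -0.53 (SE 0.15, limma adjusted p = 0.299). In the model with slide it was -0.75 (adjusted p = 0.523). KIT, the receptor for stem cell factor on early blood cells, was at -0.54 (SE 0.21, adjusted p = 0.362), and at -0.26 with slide as a covariate. MME, or CD10, a surface peptidase used to mark human pre-B cells, was detected in 4 of the 6 controls and in 0 of the 5 others. It reached 7.76 in CON4, against 4.85 to 6.04 in the other controls, and its control mean was at least 1.34-fold higher than the maternal obese arrays' detection bound (adjusted p = 0.377). Without CON4 it was at least 1.03-fold higher, so the bound rests on that array. MME passed the filter through control arrays alone, so the direction of its difference was to some extent fixed by the filter. RAG1 and RAG2, the recombinase, and DNTT, which adds bases at the joints, were not detected on enough arrays to be measured.

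Of the surface proteins and coreceptors 5 of 19 were measured, 3 above and 2 below 0, with a median of 0.03. CD72, an inhibitory receptor of B cells, was at 0.49 (SE 0.22, limma adjusted p = 0.369) but at -0.03 with slide as a covariate, and it passed in the slide comparison at 0.78 (adjusted p = 0.0472). FCER2, or CD23, the low-affinity IgE receptor, was at 0.24 (SE 0.13, adjusted p = 0.409). CD37 was at -0.32 (SE 0.21, adjusted p = 0.481) and was detected on 4 control arrays and 1 maternal obese array.

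Of the receptor signalling genes 6 of 15 were measured, 2 above and 4 below 0, with a median of -0.14, and -0.04 in the model with slide. LYN, the kinase that phosphorylates CD79A and CD79B and also CD22, was detected on 4 control and 0 maternal obese arrays. Its log2 level was 5.55, 5.59, 5.54 and 5.30 on the slide 1 controls, 4.85 and 4.90 on CON5 and CON6, and 4.79 to 5.08 in the maternal obese group. No size of a difference is given for it, since its control mean lay below the detection bound of the maternal obese arrays. It was among the genes past the threshold in the slide comparison (limma adjusted p = 0.0177), lower on slide 2, where no array detected it. LYN passed the filter through the slide 1 arrays alone, so this call was to some extent fixed by the filter. DAPP1, an adaptor downstream of the receptor, also passed in the slide comparison, at -0.62 (limma adjusted p = 0.0264). Between conditions it was at 0.44 in the model with slide (adjusted p = 0.582). GRB2, an adaptor shared by many receptors, was at -0.37 (SE 0.18) and INPP5D, the inhibitory phosphatase SHIP1, at -0.26 (SE 0.14) in the maternal obese group. The kinases SYK and BTK were not measured.

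Of the transcription factors 10 of 16 were measured, 6 above and 4 below 0, with a median of 0.08. IRF8, which acts in B cell and myeloid development, had log2 levels of 6.06 to 6.72 in controls and 5.81 to 6.05 in the maternal obese group. These ranges only just failed to overlap (6.06 in CON2, 6.05 in MO1), and 0.257% of all probes had no overlap in that direction. The difference was -0.38 (SE 0.13, limma adjusted p = 0.350), and -0.29 in the model with slide (adjusted p = 0.777). FOXO1, a factor that drives recombination in precursors, was at 0.35 (SE 0.19, adjusted p = 0.416) and POU2AF1, a coactivator at immunoglobulin promoters, at 0.33 (SE 0.16, adjusted p = 0.390), or 0.08 in the model with slide.

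Of the immunoglobulin and plasma cell genes 4 of 14 were measured, with a median of 0.06, and -0.06 in the model with slide. PRDM1, which drives plasma cell formation, was at 0.38 (SE 0.15, limma adjusted p = 0.363), and at 0.11 in the model with slide. SDC1, a proteoglycan of plasma cells that hepatocytes also express, was at -0.50 (SE 0.23, adjusted p = 0.378). MZB1, a chaperone of antibody secretion, was at 0.15, turned to -0.24 in the model with slide, and passed in the slide comparison at 0.58 (adjusted p = 0.0402). JCHAIN was not detected on any array.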

How the data were processed

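Per the labels' protocols, liver RNA was isolated in TRI Reagent, cleaned on columns and made into labelled cRNA (Illumina Total Prep). GenomeStudio and Partek are listed in the submitters' processing notes. The deposited table gives a linear probe intensity and a detection p-value for each probe and array, per the file headers. The deposited log2 values equal the log2 of those intensities (largest difference 5e-09), without background correction or normalization. Values here were made from the intensities with limma 3.58.1 (R 4.3.3): neqc with offset 16 and the detection p-values, then probes detected at p under 0.05 on 4 or more arrays, lmFit and eBayes with condition as the model, and Benjamini-Hochberg adjustment over 12065 probes. Correlations used scipy 1.17.1. Scripts were tested on simulated data.

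Symbols came from the platform annotation, which may be old: 28098 probes had 1 symbol, 13 several, and 20692 were not listed. Named genes were every member probe and, for each other list, genes past the threshold or the 3 with the smallest p. Where a gene had several probes, the one with the highest mean stood for it in lists and correlations, and for the member in likeness, which was searched over all 9803 probes with a gene symbol. DAPP1, MZB1, CD72 and LYN are named in the slide comparison because they passed it, and RAG1, RAG2, DNTT, SYK, BTK and JCHAIN were named after their detection was seen. The members and lists were chosen with earlier results of these data known. Alternatives covered slide, sex, background correction, normalization, filters, array weights and each array left out. Median scaling over all probes was added after seeing the data. Each array was a separate fetus, and 11 arrays limit the precision. Median intensities were 62.0 to 65.6 on slide 1 and 69.7 to 80.3 on slide 2.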

Additional observations from a re-analysis of the deposited data

Results flagged for a closer look

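Of 12 groups of a member probe and a condition tested for a stray array, 1 had one, and chance alone flags about 1 in 20. For IGLL1 (ILMN_2393765) the maternal obese array MO3 had a log2 level of 6.72, and the nearest of the other 4 was 6.33, a gap of 0.760 of the group's whole range.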

How the results depend on the processing

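No member probe passed the threshold in any comparison under any alternative run. For maternal obese minus control, CD79B (ILMN_2366212) had limma adjusted p-values of 0.0941 to 0.999 over 27 alternatives, and IGLL1 0.134 to 0.999 over 27. Stricter detection filters dropped VPREB1 and CD22 from some alternatives. VPREB1 had limma adjusted p-values of 0.199 to 0.999 over 25, and CD22 0.0941 to 0.999 over 26. None of these 4 changed sign. With detection p under 0.01 in place of 0.05, 2 member probes were left (CD79B ILMN_2366212 and IGLL1) in place of 6. No paired analysis was possible because the replicate numbers follow the order of deposit and pair no fetuses.

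Over all probes, maternal obese minus control called 1 with slide as a covariate, 1 with sex as a covariate, 1 on the deposited log2 values and 9 with array weights, against 0, and 0 to 2 with each array left out, 2 of them without CON5. The slide comparison called 193 with sex as a covariate and 517 on the 6 controls, against 1185, and 90 to 1248 with each array left out, with 90 without CON6, 286 without CON5 and 696 without CON3. The interaction called 0 to 20 with each array left out, 20 without CON4 and 1 without MO4 or MO5. The cause of these shifts was not tested.

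Some small differences changed sign, none past the threshold. CD79A in maternal obese minus control was 0.086 with median scaling and 0.061 on the deposited log2 values, and -0.040 to 0.023 with each array left out. In slide 2 minus slide 1, CD79B (ILMN_1785439) was 0.023 with median scaling and VPREB1 -0.034 with sex as a covariate. With each array left out, the slide differences ran from -0.12 to 0.086 and -0.56 to 0.083 for CD79B (ILMN_1785439 and ILMN_2366212), -0.46 to 0.72 for VPREB1 and -0.89 to 0.27 for IGLL1. In female minus male, CD79A was 0.045 and CD22 0.012 with slide as a covariate. With each array left out, sex differences ran from -0.071 to 0.0099 for CD79A, -0.16 to 0.079 and -0.26 to 0.016 for the CD79B probes and -0.33 to 0.095 for IGLL1. In the interaction, CD79A was -0.055 and CD22 -0.058 with slide as a covariate. It ran from -0.015 to 0.19 for CD79A and from -0.18 to 0.53 and -0.11 to 0.47 for the CD79B probes with each array left out. The cause of each was not tested. Signal over background limits CD79A, CD79B (ILMN_1785439), VPREB1 and CD22, which lie near the detection threshold on some or all arrays.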
